A study of Homo sapiens with 9 samples.

Results

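The ret finger protein-like (RFPL) family was followed across HEK 293 cells that had been transfected with an empty expression vector, with Aire or with MBD-VP16. Members were the transcript clusters, that is, the probe sets covering one transcript region, whose deposited gene symbol starts with RFPL: 6 of the 28829 clusters in the table, naming 5 genes. Values were present for 5 of these clusters, naming 4 genes (RFPL4A with 2 clusters, RFPL4B, RFPL1 and RFPL2), among 25679 clusters with values. The cluster of RFPL3 held no value on any array. The family was chosen by the differences of its members between these same groups of arrays, so their levels and differences are given as a description and carry no test.

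HEK 293 is an established line from human embryonic kidney. The vector group received PCMV without an insert, the Aire group a plasmid for Aire, the autoimmune regulator that drives tissue-restricted genes in the thymus, and the third group a plasmid for MBD-VP16. The name MBD commonly stands for methyl-CpG-binding domain, and VP16 for a potent activator of transcription from a herpesvirus. Which parts of these proteins the plasmids carried, from which species, and how many cells took them up is not stated in the labels. RNA was taken 72 h after transfection, with 3 arrays per group, labelled as biological replicates. No label says whether the 3 came from separate cultures, and p-values reflect the spread among these arrays, which may be technical.

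RFPL proteins carry a RING finger, the fold found in many ubiquitin ligases, and a B30.2 (SPRY) domain, and they are relatives of TRIM27, the ret finger protein for which the family is named. In the mouse, Rfpl4 is an oocyte protein reported to bind an E2 ubiquitin-conjugating enzyme, cyclin B1 and a proteasome subunit. Human RFPL1, RFPL2 and RFPL3 lie on chromosome 22 and have been described in the developing neocortex, where PAX6 was reported to act upstream of them. RFPL4A and RFPL4B are among the genes that become active in human embryos at cleavage stages, and RFPL genes have been reported as targets of the cleavage-stage factor DUX4.

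The promoters are shown because an MBD binds CpG dinucleotides when these are methylated and the RFPL clusters with values stood higher with MBD-VP16 than with vector. Windows from 250 bases before to 50 bases after the annotated start, from RefSeq on GRCh38.p14, were found for RFPL4A, RFPL4B, RFPL2 and RFPL3 of the 5 genes. The window of RFPL4AL1, a copy that follows RFPL4A on chromosome 19, is added. Capitals mark CpG dinucleotides, and each line runs 5′ to 3′ on the plus strand. The windows lie at chr19:55758847-55759146 for RFPL4A, chr19:55768868-55769167 for RFPL4AL1 and chr6:112347080-112347379 for RFPL4B.
RFPL4A: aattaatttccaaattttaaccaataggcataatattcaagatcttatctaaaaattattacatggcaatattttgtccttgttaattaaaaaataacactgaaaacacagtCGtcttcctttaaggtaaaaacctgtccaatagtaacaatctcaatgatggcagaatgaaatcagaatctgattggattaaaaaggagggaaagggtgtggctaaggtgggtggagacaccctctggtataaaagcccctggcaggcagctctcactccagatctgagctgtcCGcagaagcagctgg
RFPL4AL1: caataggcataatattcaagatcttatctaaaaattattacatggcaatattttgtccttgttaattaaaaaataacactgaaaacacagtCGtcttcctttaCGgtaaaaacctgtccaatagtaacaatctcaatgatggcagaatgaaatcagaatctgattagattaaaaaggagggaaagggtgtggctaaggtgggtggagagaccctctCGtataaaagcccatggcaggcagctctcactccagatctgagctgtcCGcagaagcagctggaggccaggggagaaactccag
RFPL4B: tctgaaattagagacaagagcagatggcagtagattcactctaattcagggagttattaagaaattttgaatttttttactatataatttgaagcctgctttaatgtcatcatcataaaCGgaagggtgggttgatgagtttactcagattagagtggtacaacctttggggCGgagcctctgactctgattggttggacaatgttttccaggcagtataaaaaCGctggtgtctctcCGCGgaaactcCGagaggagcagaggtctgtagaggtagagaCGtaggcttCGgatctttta

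The window of RFPL4A held 2 CpG dinucleotides, that of RFPL4AL1 held 4 and that of RFPL4B held 8. The median over 35116 promoter windows of the same length was 14, with quartiles of 4 and 28. Of all windows, 18.2% held no more CpG than RFPL4A and 41.6% no more than RFPL4B. On chromosome 22, RFPL2 and RFPL3 lay at or above the median, with 19 and 17 in the windows of the 2 annotated starts of RFPL2 and 14 in that of RFPL3. No window was found for RFPL1. The letters TATAAA, searched on both strands, began 11 bases before the annotated start of RFPL4A, 32 before that of RFPL4AL1 and 34 before that of RFPL4B. They are present in 11.5% of all windows and were not in those of RFPL2 and RFPL3. The motif that human DUX4 binds was searched on both strands with its variable letters left free. It lay on the minus strand in the windows of RFPL4A (TAATCCAATCA) and RFPL4AL1 (TAATCTAATCA), against 0.888% of all windows. These matches did not overlap a TATAAA or a CpG. The windows of RFPL4B, RFPL2 and RFPL3 held no match. A match describes the letters only, and no methylation or binding was measured.

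**Figure D1:**
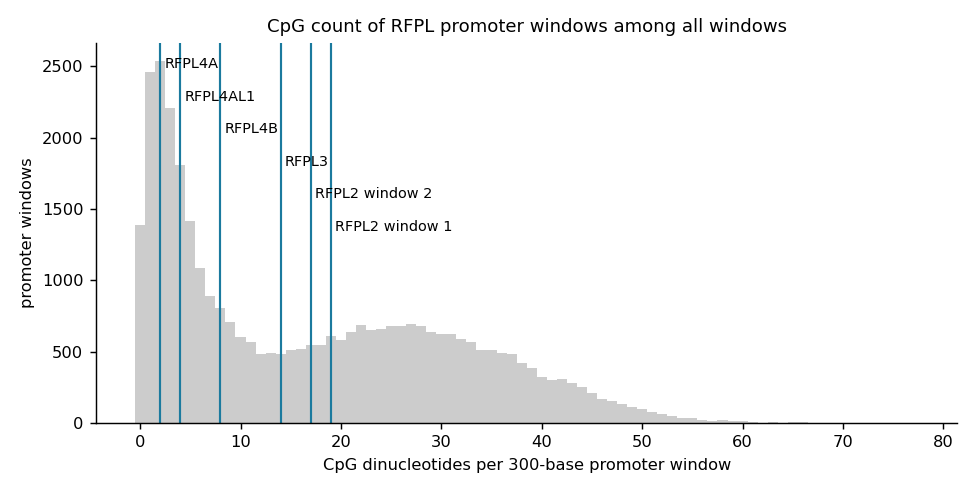
Number of CpG dinucleotides (horizontal axis) in 300-base promoter windows; grey bars count the 35116 windows of the RefSeq table and blue lines mark the RFPL windows. RFPL4A with 2, RFPL4AL1 with 4 and RFPL4B with 8 lie below the median of 14, while RFPL3 and both windows of RFPL2 lie at 14, 17 and 19.

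The name RFPL4A is carried by 2 clusters on chromosome 19, from 56273166 to 56274541 and from 56280401 to 56284545 in positions of the deposited table. The ends of these clusters lie about as far apart as the promoter windows of RFPL4A and RFPL4AL1. The second cluster may therefore lie at RFPL4AL1, and the 2 are not taken as 2 readings of 1 gene. No source used here names the build of these positions. All 5 transcript accessions of the first cluster are also listed for the second, and both carry the annotation crosshyb_type 3 (probes that may also bind other transcripts), whereas the other RFPL clusters carry type 1 (unique). The promoter windows of RFPL4A and RFPL4AL1 were identical at 274 of 279 aligned bases (98.2%). Their transcripts and the probes were not compared. Which cluster reads RNA of RFPL4A, of RFPL4AL1 or of both was not tested, and RFPL4A below means the clusters that carry this name.

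RFPL4A was the one member whose Aire arrays were clear of the vector arrays. The first cluster read 8.31, 8.02 and 8.18 on the log2 scale with vector, 5.54, 5.59 and 5.52 with Aire, and 9.20, 9.37 and 9.29 with MBD-VP16. The second read 8.08, 7.70 and 7.92 with vector, 5.12, 5.55 and 5.67 with Aire, and 9.10, 9.25 and 9.15 with MBD-VP16. On both, the 3 Aire arrays were lowest and the 3 MBD-VP16 arrays highest, and no groups overlapped. The reading of the first cluster minus that of the second ran from −0.15 to 0.42 over the 9 arrays.

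Aire minus vector was −2.62 ± 0.09 log2 units for the first RFPL4A cluster (SE of the fit, n = 3 per group), 6.15-fold lower, and −2.45 ± 0.15 for the second, 5.48-fold lower. These were the lowest and the fourth lowest of 25679 differences between Aire and vector, ranks 1 and 4 from the bottom. With MBD-VP16 the clusters stood 1.12 ± 0.09 and 1.27 ± 0.15 above vector, ranks 211 and 165 from the top. The direct difference of MBD-VP16 over Aire was 3.74 ± 0.09 and 3.72 ± 0.15, 13.3-fold and 13.2-fold. Fewer cells making a transcript and less of it per cell cannot be told apart in RNA from whole cultures. Whether the probes of RFPL4A also bind plasmid sequence was not tested.

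RFPL4B, a single gene on chromosome 6 (112668532 to 112672498 in the deposited table), was near the bottom of the signal range in vector cells. Its cluster read 3.11, 2.93 and 3.27 with vector and 3.23, 3.59 and 3.53 with Aire, and 7.83, 7.83 and 7.87 with MBD-VP16. The MBD-VP16 arrays lay at least 4.24 above any other array, while the Aire and vector arrays overlapped. The difference from vector was 4.74 ± 0.11, rank 21 from the top of 25679. Over Aire it was 4.39 ± 0.11, rank 17. The 10th percentile of all clusters lay at 3.60 to 3.69 on the 9 arrays. The vector mean of RFPL4B was below it, where RMA values understate differences. Aire minus vector was 0.35 ± 0.11 (means 3.45 and 3.10).

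RFPL1, on chromosome 22 (29834572 to 29838444), has been reported to slow cell cycling when overexpressed in a human line. It read 3.55, 4.12 and 4.09 with vector, 3.66, 3.86 and 4.18 with Aire and 6.09, 5.57 and 5.94 with MBD-VP16. The MBD-VP16 arrays were all higher, by at least 1.39 from the nearest Aire array, and the other groups overlapped. Its difference from vector was 1.95 ± 0.20, a 3.85-fold difference and rank 109 from the top, and that over Aire was 1.97 ± 0.20. Aire minus vector was −0.02 ± 0.20.

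RFPL2, also on chromosome 22 (32586425 to 32598539), varied least. It read 3.97, 4.19 and 3.88 with vector, 3.67, 4.01 and 3.85 with Aire and 4.78, 4.21 and 4.32 with MBD-VP16. The lowest MBD-VP16 array was 0.02 above the highest vector array. MBD-VP16 minus vector was 0.42 ± 0.16, and 0.25 without MBD-VP16 replicate 1, which held the highest value. MBD-VP16 minus Aire was 0.59 ± 0.16 and Aire minus vector −0.17 ± 0.16.

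**Figure D2:**
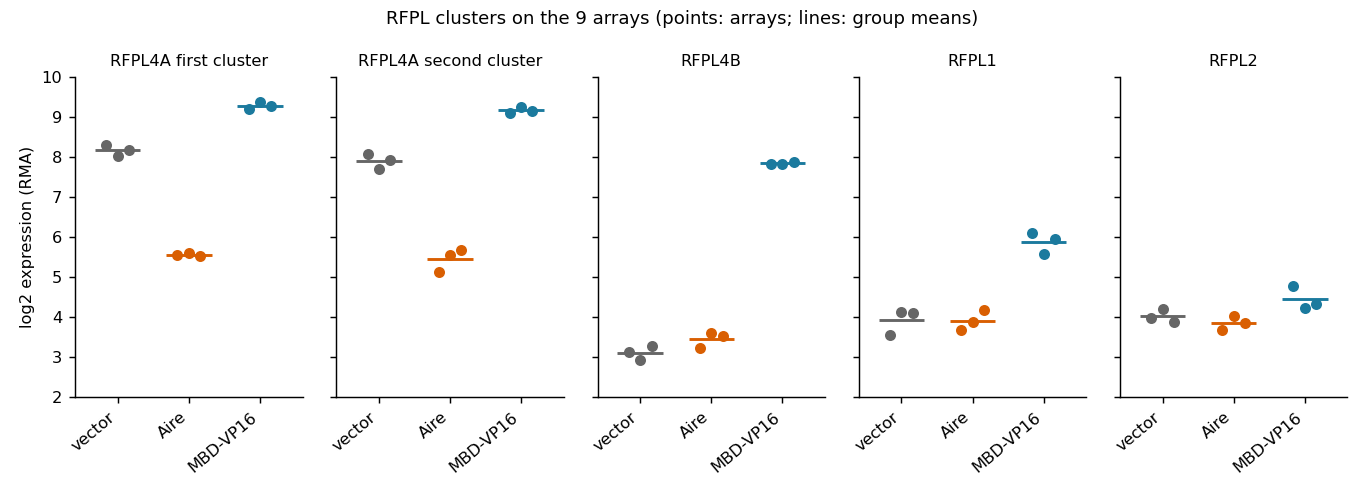
Log2 expression (RMA, vertical axis) of the 5 RFPL clusters with values on each of the 9 arrays; points are arrays and lines group means. The Aire arrays of both RFPL4A clusters lie between 5.12 and 5.67, below all vector arrays, while RFPL4B and RFPL1 are set apart only with MBD-VP16.

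Of the 5 clusters, 2 (both RFPL4A) lay with all Aire arrays below all vector arrays, as did 12.6% of all clusters (24.9% in either direction), and 0 lay above, as did 12.3%. With MBD-VP16 all 5 lay clear above vector, against 13.2% of all clusters, and all 5 clear above Aire, against 8.41%. Of all clusters, 0.218% stood at least 2-fold lower with Aire than with vector, 1.02% at least 2-fold higher with MBD-VP16 than with vector and 0.81% at least 2-fold higher with MBD-VP16 than with Aire. These counts follow from how the family was chosen and nothing is read from them. The median difference over the 5 clusters was −0.17 for Aire minus vector, 1.27 for MBD-VP16 minus vector and 3.72 for MBD-VP16 minus Aire; over all clusters it was 0.03, 0.00 and −0.02. The vector arrays are shared by both of the comparisons with vector. The vector levels of RFPL4B, RFPL1 and RFPL2 (3.10, 3.92 and 4.01) lie near the bottom of the range and those of RFPL4A (8.17 and 7.90) do not, so the sizes of their differences are not ranked against each other.

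The neighbours of the RFPL genes were not used to choose the family, and they were tested with limma in 1 fit over all 25679 clusters with a threshold of 0.05 on the Benjamini-Hochberg adjusted p. Around RFPL4A, 20 clusters had values within 250 kb, among them the oocyte-expressed inflammasome relatives NLRP11, NLRP9, NLRP4, NLRP13, NLRP8 and NLRP5. None of the 20 passed in any comparison in the limma fit, with 0 at an unadjusted p under 0.05 with Aire, 0 with MBD-VP16 and 0 between these. NLRP11, the nearest named cluster at 12.2 kb, differed by −0.32 ± 0.20 with Aire (adjusted p = 0.419) and by −0.06 ± 0.20 with MBD-VP16 (0.888), and NLRP9, at 23.4 kb on the other side, by −0.01 ± 0.19 and −0.14 ± 0.19 (0.988 and 0.724). Around RFPL2 and RFPL3 none of 13 passed in the limma fit, with 2, 2 and 0 at an unadjusted p under 0.05. SLC5A4, a sugar transporter relative between RFPL2 and RFPL3, 15.5 kb from RFPL2, differed by 0.26 ± 0.16 with MBD-VP16 (limma adjusted p = 0.371). C22orf42, 31.1 kb from RFPL2 on the other side, differed by 0.00 ± 0.13. RTCB, 26.4 kb beyond RFPL3, differed by −0.11 ± 0.10 with MBD-VP16 (limma adjusted p = 0.537).

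NEFH, the heavy neurofilament subunit, is the nearest named cluster to RFPL1, 28.5 kb away on the same strand (chromosome 22, 29866907 to 29887379). It read 4.64, 5.25 and 5.19 with vector, 5.20, 5.14 and 5.04 with Aire and 8.33, 8.29 and 8.13 with MBD-VP16. NEFH rose by 3.22 ± 0.15 with MBD-VP16 (limma adjusted p = 1.87e-06), in 3 of 3 arrays, and kept its call whichever of the 9 arrays was left out (adjusted p up to 3.14e-05). On the other side of RFPL1, AP1B1, a subunit of the clathrin adaptor AP-1, differed by −0.04 ± 0.07 (limma adjusted p = 0.768), and THOC5, beyond NEFH at 63.4 kb, by −0.04 ± 0.08 (0.797). RHBDD3, a rhomboid relative at 171.0 kb, fell by 0.31 ± 0.06 (limma adjusted p = 0.0177). Near RFPL4B, LAMA4, a laminin chain at 92.6 kb, rose by 0.36 ± 0.07 (limma adjusted p = 0.0161), and the pseudogene KRT18P65, at 10.2 kb, stood at −0.44 ± 0.14 (0.0935).

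In all, 3 of 47 neighbouring clusters passed with MBD-VP16 (6.38%, against 9.89% of all clusters), and their median difference was 0.02. The count was 1 without MBD-VP16 replicate 1 or without replicate 3. The call of LAMA4 was lost when either of 2 arrays was left out and that of RHBDD3 with any 1 of 4. With Aire, 0 of 47 passed in the limma fit, against 4.4% of all clusters, while 4 had an unadjusted p under 0.05. The fit with an intensity trend called 1. Of the 47, 1 (NEFH) passed between MBD-VP16 and Aire, by 3.12 ± 0.15 (limma adjusted p = 2.52e-06), against 1.88% of all clusters (1.8% higher and 0.074% lower).

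**Figure D3:**
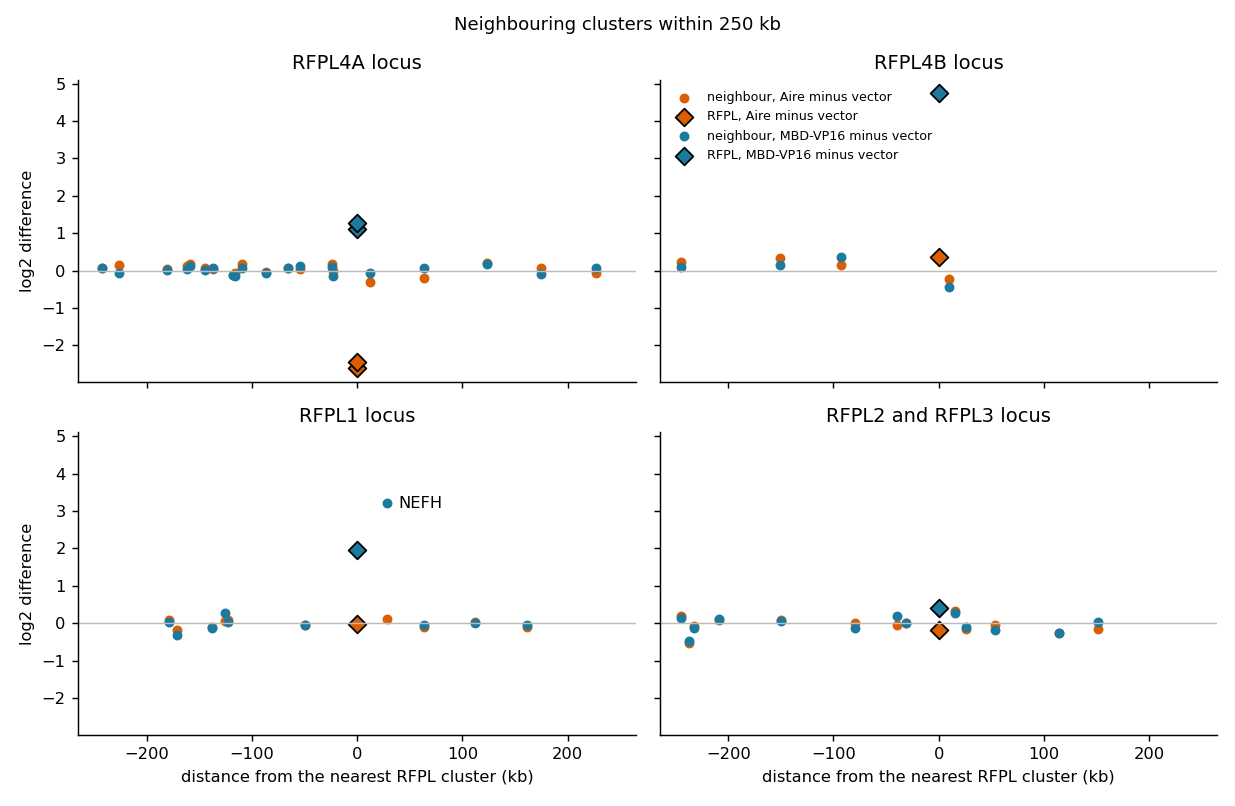
Log2 difference from vector (vertical axis) of clusters within 250 kb of each RFPL locus, by distance from the nearest RFPL cluster in kb (horizontal axis, negative towards the start of the chromosome). Circles are neighbours and diamonds the RFPL clusters; orange is Aire and blue MBD-VP16. NEFH at 3.22 is the neighbour set apart with MBD-VP16.

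Genes of human cleavage stages, with which RFPL4A and RFPL4B share their activity in embryos, were raised with MBD-VP16. Clusters were found for 31 of 36 listed genes, 53 clusters in all, of which 35 are open to cross-hybridisation and several repeat the same values, so that 44 sets of values were distinct. With MBD-VP16, 50 of the 53 rose and none fell (41 of the 44 distinct), where 4.75% of all clusters rose. The median difference was 3.05, or 3.01 over the distinct sets, against 0.00 over all clusters. Each run without 1 of the arrays again gave 50. Clusters naming several TRIM64 copies rose by 6.35 ± 0.17 and one naming SLC34A2, a phosphate transporter, beside ROS1 by 5.05 ± 0.13, with adjusted p = 6.47e-08 for both (limma). Clusters shared by PRAMEF1 and PRAMEF2 with other copies rose by 4.24 ± 0.10 and 4.92 ± 0.15, one shared by MBD3L2 and its copies by 4.76 ± 0.14 and one shared by FAM90A copies by 3.05 ± 0.09 (limma adjusted p up to 9.91e-08). Among clusters with 1 symbol, 15 of 16 passed in a fit limited to such clusters. This list was written with part of these changes known and is no independent evidence.

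With Aire, the median of the cleavage-stage clusters was 0.14. Of the 53, 8 rose (7 of the 44 distinct) and none fell, against 1.58% of all clusters rising. They named TRIM43 with TRIM43B, TRIM48 or TRIM49 with other copies, TRIM51 or H3Y1 with H3Y2, and the 3 TRIM43 clusters were highest or near it at 1.09 ± 0.22 to 1.22 ± 0.22. These calls were unstable: the count was 0 without vector replicate 2, Aire replicate 1 or Aire replicate 3, 2 without Aire replicate 2, 3 without MBD-VP16 replicate 2 or 3, 4 without vector replicate 3 and 5 without MBD-VP16 replicate 1. None of the 8 clusters had a single symbol. RFPL4B stood at 0.35 ± 0.11 in this comparison, with overlapping arrays, and both RFPL4A clusters at −2.62 and −2.45.

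Oocyte and maternal genes were listed because mouse Rfpl4 was described in that setting. Of 33 clusters on 29 of 32 listed genes, 4 rose and 1 fell with MBD-VP16, against 4.75% and 5.14% of all clusters, with a median of 0.12. DPPA3, a germ cell and preimplantation gene, rose by 1.94 ± 0.13 (limma adjusted p = 2.69e-05), NLRP2 by 0.60 ± 0.11 (0.0116), and 2 clusters shared by the oocyte tubulin TUBB8 and related sequences by 0.52 ± 0.08 (0.00539) and 0.42 ± 0.09 (0.0172). Both of these are open to cross-hybridisation, and the TUBB8 cluster annotated as unique differed by 0.01 (limma adjusted p = 0.952). GDF9, an oocyte growth factor, fell by 0.32 ± 0.08 (limma adjusted p = 0.039) and passed in only 1 of the 9 fits that each left out an array, while a cluster naming UQCRQ beside GDF9 differed by 0.04 ± 0.06 (0.734). The count was 3 without vector replicate 1 or 2 or without MBD-VP16 replicate 2 or 3. With Aire the cluster shared by POMZP3 and ZP3 fell by 0.46 ± 0.07 (limma adjusted p = 0.00985; 2.82% of all clusters fell), the cluster of ZP3 alone differed by −0.16 ± 0.13 (0.563), and no other cluster of the list passed, except that the count was 2 without vector replicate 3.

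A further list held RING and B30.2 relatives other than TRIM43, TRIM48, TRIM49, TRIM51 and TRIM64, which have the same domains but were placed on the cleavage-stage list, where their clusters rose by 1.46 (TRIM51) to 6.35 (TRIM64) with MBD-VP16. Of 40 clusters on 26 genes, 1 rose and 5 fell with MBD-VP16 (1 and 2 of 33 distinct sets of values), against 4.75% and 5.14% of all clusters. The median was −0.06, or 0.00 over distinct sets. TRIM22, an interferon-induced antiviral gene whose cluster also names OR56B1, rose by 0.97 ± 0.15 (limma adjusted p = 0.00501), while a second cluster with these names differed by −0.17 ± 0.08 (0.238). The 5 that fell were 3 clusters with identical values for TRIM39, by 0.57 ± 0.11 (0.0141), and 2 with identical values for TRIM27 itself, by 0.28 ± 0.07 (0.0404). A further 3 clusters naming RPP21 beside TRIM39 differed by −0.08 to −0.06 (limma adjusted p from 0.466 to 0.577). The count was 1 without MBD-VP16 replicate 2, and TRIM27 passed in only 1 of the 9 fits that each left out an array. With Aire the TRIM22 cluster rose by 0.86 ± 0.15 (limma adjusted p = 0.0193) and was the single call of 40, against 1.58% of all clusters rising. It was lost without vector replicate 1 or 2 or Aire replicate 1 or 3, which left a count of 0.

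**Figure D4:**
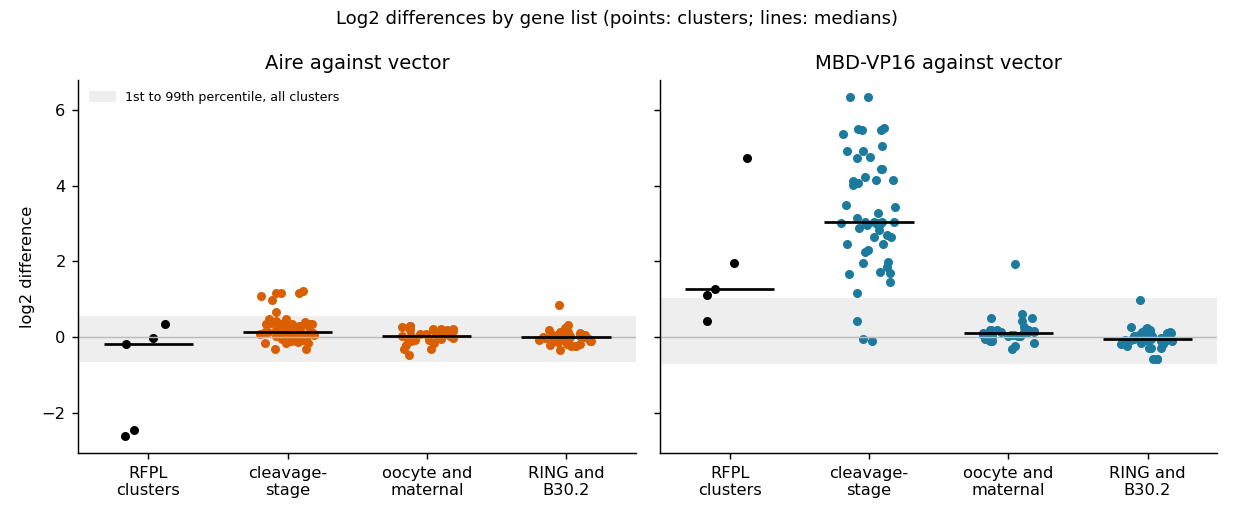
Log2 difference from vector (vertical axis) of the RFPL clusters and of the clusters of 3 gene lists, for Aire (left) and MBD-VP16 (right). Points are clusters, black lines medians and the grey band the 1st to 99th percentile of all clusters, −0.63 to 0.54 with Aire and −0.68 to 1.01 with MBD-VP16. The cleavage-stage median of 3.05 lies above that band with MBD-VP16, and the RFPL4A clusters lie below it with Aire.

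PAX6, reported upstream of the chromosome 22 members in neocortex, rose with MBD-VP16 by 0.52 ± 0.08 (limma adjusted p = 0.00377), from 7.41 ± 0.10 to 7.93 ± 0.049 (SD, n = 3). With Aire it differed by 0.29 ± 0.08 (0.0703). The genes for proteins reported to bind mouse RFPL4 did not pass in either comparison against vector: the E2 enzyme UBE2A differed by −0.21 ± 0.07 and −0.26 ± 0.07 with Aire and MBD-VP16 (limma adjusted p = 0.15 and 0.0574), cyclin B1 (CCNB1) by 0.12 ± 0.06 and 0.02 ± 0.06 (0.313 and 0.879), and the proteasome subunit PSMB1 by 0.10 ± 0.07 and 0.12 ± 0.07 (0.473 and 0.306).

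The clusters most like each RFPL member over the 9 arrays were sought from 186 clusters with 1 symbol. The group means of these spanned at least 1 log2 unit, as did those of RFPL4A, RFPL4B and RFPL1. Small RNA genes and symbols that begin with LOC, ENST or TSID were taken out of the 186 before ranking. How many were taken out was not counted. Likeness was Pearson's r over the 9 arrays, which fall into 3 groups, so it mainly reflects the group means and is given as a description. EGR1, an immediate early transcription factor, was most like both RFPL4A clusters, with r of 0.977 and 0.957. It read 8.96, 9.02 and 8.96 with vector, 8.10, 7.93 and 7.96 with Aire and 9.13, 9.15 and 9.09 with MBD-VP16, so its Aire arrays were also lowest. ETV5, an ETS factor (0.925 and 0.904), ZNF114 (0.873 and 0.885) and INA, a neuronal intermediate filament (0.846 and 0.862), completed the named genes, beside a transcript known by an identifier. Their Aire minus vector differences of −0.98 for EGR1, −1.40 for ETV5, −0.29 for ZNF114 and −0.51 for INA were smaller than that of RFPL4A. MBD-VP16 minus vector was 0.14 for EGR1, 0.19 for ETV5, 0.71 for ZNF114 and 1.14 for INA. For the RFPL4A clusters it was 1.12 and 1.27.

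ZNF750, a regulator of epidermal differentiation, was most like RFPL4B (r = 0.997), at 4.14, 4.29 and 4.20 with vector, 4.42, 4.67 and 4.34 with Aire and 8.04, 7.78 and 7.87 with MBD-VP16. The germline cyclin CCNA1 (0.992), the AP-2 factor TFAP2C (0.992), NEFH (0.990) and MGARP (0.989) followed. All 5 were highest on the MBD-VP16 arrays, and the Aire arrays of ZNF750 also lay above its vector arrays. They had differences from vector of 1.06 for TFAP2C to 3.69 for ZNF750, below the 4.74 of RFPL4B. GPER1, a membrane estrogen receptor, was most like RFPL1 (0.990), then CCNA1 (0.987) and UBTFL1 (0.986), which has 3 clusters with identical values. NEFH, the neighbour of RFPL1, was among the 5 for RFPL4B and not among the 5 for RFPL1.

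**Figure D5:**
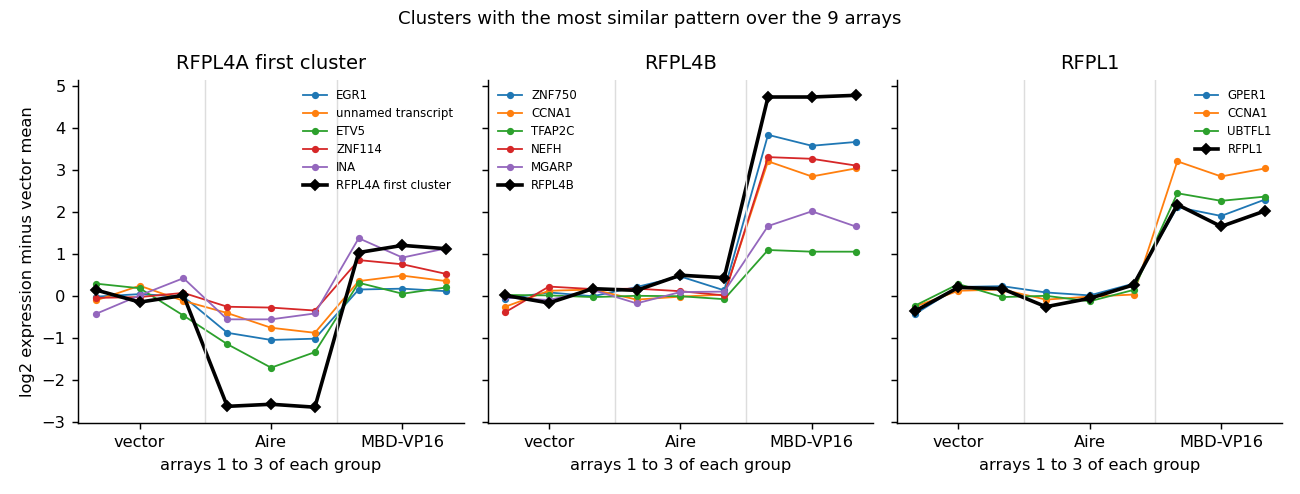
Log2 expression minus the vector mean (vertical axis) on the 9 arrays, in the order of arrays 1 to 3 of each group; the black line is the RFPL cluster and coloured lines are the clusters most like it, with lines joining arrays only to guide the eye. RFPL4A and EGR1 lie below 0 with Aire, whereas RFPL4B, RFPL1 and the clusters most like them lie farthest above 0 with MBD-VP16. With Aire, RFPL4B and ZNF750 lie above 0 by 0.35 and 0.27 on average.

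Over the whole series, array medians ran from 6.11 to 6.23, arrays of 1 group correlated at 0.9879 to 0.9928 and no arrays were identical. Vector replicate 1 had the widest residuals, with an SD of 0.191 against 0.137 to 0.161 on the others. MBD1, which encodes a methyl-CpG-binding protein, rose with MBD-VP16 by 1.78 ± 0.25 (limma adjusted p = 0.00295), while AIRE differed by 0.23 ± 0.09 with Aire (0.213), so directions for Aire rest on the labels. In all, 1131 clusters passed with Aire, 406 higher and 725 lower (280 and 917 with each array centred on its median), and 2539 with MBD-VP16, 1220 higher and 1319 lower (873 and 2286 when centred). Of genes that mark HEK 293 or kidney lines, on 10 clusters, KRT8 read 10.10 and VIM 10.47 in vector cells. A cluster naming NEFL read 8.56, SIX2 7.65, EYA1 6.28, LHX1 6.13 and PAX2 5.92, the last 3 near the array medians. Of markers of other cell types, COL1A1 read 6.76 and a cluster naming INS beside IGF2 6.34, both above PAX2. The other clusters for such markers read from 3.03 (ALB) to 4.68 (CD3E and MYH7). With Aire, 2 of the 10 fell, against 2.82% of all clusters. Both name KRT18: the unique cluster on chromosome 12 and one open to cross-hybridisation on chromosome 13. With MBD-VP16 the chromosome 13 cluster fell and SIX2 rose, against 5.14% and 4.75% of all clusters. The chromosome 12 cluster of KRT18 differed by −0.24 ± 0.07 with MBD-VP16 (limma adjusted p = 0.0725). A further KRT18 cluster, on chromosome 9, passed in neither comparison. Of the 10, 6 had an unadjusted p under 0.05 in each comparison with vector. The SIX2 call (limma adjusted p = 0.0497) was lost without any 1 of 8 arrays. The KRT18 calls with Aire were lost without any 1 of 6 arrays (chromosome 12) or 8 arrays (chromosome 13). That with MBD-VP16 was lost without 1 array. Of 8 clusters for markers of other cell types, 0 passed in the limma fit with Aire or with MBD-VP16. In each comparison 1 of the 8 had an unadjusted p under 0.05, and 4.4% and 9.89% of all clusters passed.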

How the data were processed

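The deposited expression values are log2 signals of 28829 transcript clusters on 9 arrays, given to 2 decimals. The submitters' processing notes name RMA, the method the authors used, without a version, and no source used here names the annotation release or genome build. RMA brings arrays to a common distribution and compresses differences at low signal. A second table, deposited by the authors, lists their log2 fold changes and linear ratios. It also lists p-values and false discovery rates, as deposited by the authors from a test that no header names. From it came symbols, positions and cross-hybridisation types. Its 9 per-array columns were not used. Of 28829 clusters, 3150 without values were left out and the other 25679 were tested, 2528 of them with several symbols, because multicopy genes lie on such clusters. Symbols were updated through Entrez identifiers with a GRCh38.p14 gene table, used only for names.

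The limma package, version 3.58.1 under R 4.3.3, was used to fit group means over all arrays together (lmFit, eBayes), with Benjamini-Hochberg adjustment over the 25679 clusters, a threshold of 0.05 and no filter on signal. Tests are two-sided. SE is that of the fit, SD that of 3 arrays. The authors' deposited log2 fold changes of the RFPL clusters differed from the fit by at most 0.01. For arrays, their number limits the precision. The step was also run on simulated data, drawn with independent noise of the same spread on every array. These arrays differ in spread, so nothing about the calls here is read from that run. The members, lists and comparisons were chosen with earlier results of these data known.

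Genes named are the RFPL clusters; the nearest neighbours with a symbol on each side and those past the threshold; up to 8 clusters per list by adjusted p; the reported partners and PAX6; the 5 clusters most like a member; and AIRE and MBD1. THOC5, the NLRP genes beyond the nearest and the levels of the cell type markers were added after their values were seen. Promoter windows came from RefSeq. Alternatives tried were other scaling, filters, an intensity trend, a replicate block and leaving out each array. Replicate numbers were not used to pair the arrays in the main fit. Deviations of same-numbered arrays correlated at -0.0686 to 0.135. Arrays with different numbers were not compared, so whether the numbers pair the arrays was not settled.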

Additional observations from a re-analysis of the deposited data

How the results depend on the processing

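The differences of the RFPL clusters moved by less than the spread between arrays under centring and repeated quantile normalization. With 3 arrays per group, leaving out 1 array cannot move a difference by more than that spread. A replicate block in this balanced design cannot move it at all, and the authors' deposited fold changes come from the same arrays. No stability is therefore read from these settings. With each array left out in turn, MBD-VP16 minus vector ran from 0.25 to 0.54 for RFPL2 and from 1.76 to 2.10 for RFPL1. The other values are counts past the threshold. Leaving out each array in turn gave 287 to 937 clusters with Aire, 1346 to 2406 with MBD-VP16 and 312 to 507 between these; 0, 1 to 3, and 1 neighbours; 0 to 8 and 50 cleavage-stage clusters with Aire and with MBD-VP16, 1 to 2 and 3 to 5 oocyte clusters, and 0 to 1 and 1 to 6 RING and B30.2 clusters. An intensity trend gave 2308 clusters with Aire, 3814 with MBD-VP16, 1 neighbour and 2 oocyte clusters with Aire. Keeping clusters with a group mean of at least 5 gave 1850 clusters with Aire and, of oocyte clusters, 2 with Aire and 3 with MBD-VP16. Clusters with 1 symbol gave, with Aire, 0 on each of the 3 lists. With MBD-VP16 they gave 15 cleavage-stage, 3 oocyte and 2 RING and B30.2 clusters, of 16, 28 and 27 tested. Unique clusters gave 230 between MBD-VP16 and Aire of 22949 tested, against 482 of 25679 in the main fit. On the lists they gave 0 cleavage-stage and 0 oocyte with Aire. With MBD-VP16 they gave 17, 3 and 1, of 18, 30 and 22 tested. Why these counts moved was not tested. A window of 500 kb gave 2, 8 and 3 neighbours. With Aire, centring gave 4 and quantile normalization 5 cleavage-stage clusters; the cause was not tested. The replicate numbers as a block gave 597 clusters with Aire against 1131, with 5 cleavage-stage and 0 RING and B30.2 clusters. This block moved no other of these counts by over 1.5 times. The number of arrays per group, and signals near the bottom of the range for RFPL4B, RFPL1 and RFPL2, limit the precision.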
